A study of Brassica oleracea with 7 samples.

Results

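Overlapping neighbouring gene loci of Brassica oleracea are pairs of genes that follow each other on a scaffold and whose spans share bases. The loci of the expression table were sorted by scaffold, start, end and ID, and 2 consecutive loci were taken as overlapping where the start of the second lay before the end of the first. By this rule 1380 of 38782 adjacent pairs overlapped (3.56%), and 2640 of 39481 genes were members of such a pair (6.69%). The choice used positions only and no expression value. The comparison set was the 37402 adjacent pairs that did not overlap, and, for single genes, the 36841 genes outside any overlapping neighbouring pair.

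Poly(A)+ RNA was sequenced from 7 tissues of this vegetable species, with 1 library per tissue. The tissues were flower bud of 0.8 cm, flower on the day of opening, silique (the seed pod) at 15 days after pollination, leaf, stem and root of plants 7 weeks old, and callus, an unorganised mass of cultured cells. The plants grew in a greenhouse at 15 to 25 °C and the callus in culture at 25 °C. The labels name no cultivar, genotype or treatment.

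Genes whose spans overlap are common in compact plant genomes. A pair on opposite strands may meet at the 3′ or the 5′ ends, a shorter gene may lie inside an intron of a longer one, and a pair on the same strand may be read from 1 promoter or be parts of a single gene that was annotated as separate models. In plants, transcripts that overlap in opposite directions can pair and give rise to small interfering RNAs, transcription across a neighbour can lower its output, and neighbours can share chromatin state. Short-read counting is ambiguous in such places, because a read in shared sequence belongs to either gene unless the library keeps the strand.

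The library protocol names no step that marks strand, and the table gives no strand for any locus. Reads of overlapping exons can therefore not be told apart, and whether a pair was convergent, divergent or in tandem could not be read from the files. Libraries were made from 20 µg of total RNA each, with the cDNA selected for fragments of 200 ± 20 bp and amplified in 15 PCR cycles. Levels are given in FPKM, the number of fragments normalised to the length of the gene model and the size of the library, with the lower and upper bound that accompany each value. As inferred from the values and their bounds, FPKM had been divided by between 12419277 (callus) and 13849904 (silique) fragments. With 1 library per tissue no difference between tissues has a replicate check, and no test or p-value is given. Intervals in brackets are 95% intervals for counting error only (Wilson intervals for shares, binomial order-statistic intervals for medians), and they treat pairs as independent although some share a gene. In a mixed tissue, fewer cells of a type and less RNA per cell cannot be told apart.

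The overlaps took 3 forms. In 836 pairs (60.6%) the loci were staggered, each reaching beyond the other. In 436 pairs (31.6%) one locus lay inside the other and was called nested. In 108 pairs (7.83%) both loci had the same start and end. The overlap ranged from 1 to 139388 bp, with a median of 821 bp and quartiles of 100 and 2114 bp. It was under 100 bp in 343 pairs, all of them staggered, between 100 bp and less than 1000 bp in 417 pairs, and 1000 bp or more in 620 pairs. Median overlaps were 253.5 bp in staggered pairs, 1445.5 bp in nested pairs and 5570.0 bp at identical loci. Among the overlaps under 100 bp, 110 had a length divisible by 3, 120 left a remainder of 1 and 113 a remainder of 2, so no reading phase stood out.

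When only consecutive loci were joined, most members stood in a chain of 2 loci. Chains of loci joined by neighbouring overlaps numbered 1149 with 2 loci, 103 with 3, 7 with 4 and 1 with 5. Members lay on 367 of the 699 scaffolds in the table. IDs in overlapping pairs were consecutive numbers in 94.3% of cases, against 86.9% in adjacent pairs without overlap. When loci with another row between them were also counted, 2584 pairs and 3433 genes overlapped. A chain of 2 loci can thus overlap further loci. Some of the genes called other genes here overlap a member that does not stand next to them in the sorted order.

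Member loci were long, while their coding length, where it could be inferred, was not. Their median span was 2847 bp, against 1638 bp in other genes, and 585 members (22.2%) spanned 10000 bp or more, against 296 other genes (0.803%). The longest member span was 285187 bp. Coding length, inferred from FPKM and the number of fragments that the width of the bounds implies, had a median of 987 bp in members and 1038 bp in other genes. It could be inferred for 1779 members (67.4%), and it was a multiple of 3 in 97.5% of these and in 99.4% of all genes with a value. A value needs a whole number of 10 or more implied fragments, so the remaining members are not covered. At identical loci only 56 of 207 members had a value, with a median of 1445 bp. Genes without introns, whose span equals the coding length within 0.2%, were 12 of 1779 members (0.675%, 0.386 to 1.18) and 660 of 26759 other genes (2.47%, 2.29 to 2.66). A long span raises the chance of meeting a neighbour by construction, so the difference in span follows in part from the rule.

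A gene was called detected where FPKM reached 1 in any tissue. Members were detected in 2173 of 2640 cases (82.3%, 80.8 to 83.7), against 78.1% (77.7 to 78.5) of other genes and a background of 78.4% over all genes. Among members of staggered pairs under 100 bp the share was 88.8%, among members of longer staggered overlaps 87.7%, among members of nested pairs 76.1% and among members of identical loci 61.8%. The median of the highest FPKM was 8.59 in members and 8.13 in other genes. Members listed at 0 in every tissue numbered 134 (5.08%), the same share as the 1872 such genes outside (5.08%). Detection in all 7 tissues reached 43.2% of members and 40.3% of other genes.

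Members were detected more often than other genes in each of the 7 tissues. The shares were 69.2% of members and 62.7% of other genes in bud, 63.0% and 57.4% in flower, 64.3% and 60.4% in silique, and 64.3% and 58.2% in leaf. They were 59.6% of members and 55.7% of other genes in stem, 55.3% and 52.5% in root, and 68.1% and 63.3% in callus. The excess over other genes was widest in bud and narrowest in root.

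Tissue-enriched genes were those detected genes in which the highest tissue stood at least 2 above the next on log2(FPKM + 1), a 4-fold step on that scale. This held for 137 detected members (6.30%, 5.36 to 7.41), against 7.21% (6.92 to 7.52) of other detected genes and a background of 7.15% over all detected genes, so the share in members was close to the background. Enriched members numbered 53 in bud, 24 in callus, 19 in flower, 19 in silique, 10 in root, 9 in leaf and 3 in stem. Silique-enriched genes made up 0.874% of detected members and 1.88% of other detected genes, and root-enriched genes 0.460% of detected members and 1.05% of other detected genes. The shares were closer in callus (1.10% of detected members and 1.24% of other detected genes), leaf (0.414% and 0.487%) and stem (0.138% and 0.167%). In bud and flower the order was the other way, with 2.44% of detected members and 1.78% of other detected genes in bud, and 0.874% of detected members and 0.612% of other detected genes in flower.

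The tissue profiles of the genes in an overlapping pair were more alike than those of adjacent genes without overlap. Both members were detected in 958 overlapping pairs (69.4%), 1 member in 352 (25.5%) and neither in 70 (5.07%). The counts were 23564 (63.0%), 11505 (30.8%) and 2333 (6.24%) in adjacent pairs without overlap. Over the pairs with both genes detected, the median Pearson r across the 7 tissues, on log2(FPKM + 1), was 0.449 (0.393 to 0.507) in overlapping pairs and 0.148 (0.140 to 0.159) in adjacent pairs without overlap. The quartiles were 0.0264 and 0.801 in overlapping pairs, against -0.204 and 0.488 in adjacent pairs without overlap. Each r rests on 7 points from the same 7 libraries, so it is a description of these libraries.

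**Figure D1:**
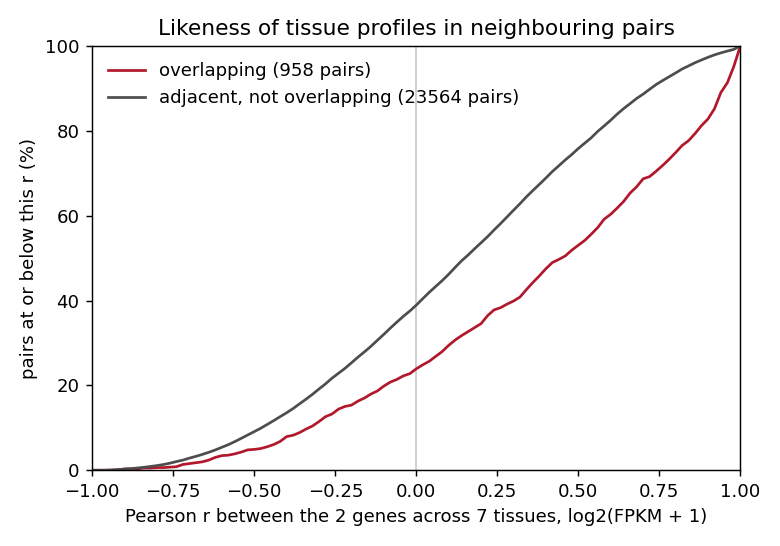
Cumulative share of neighbouring pairs (y, %) at or below each Pearson r between the genes of a pair across 7 tissues (x), for pairs with both genes detected. The curve of the 958 overlapping pairs runs right of that of the 23564 adjacent pairs without overlap, with medians of 0.449 and 0.148.

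The excess was largest at the upper end. An r of 0.9 or more was found in 165 overlapping pairs (17.2%), against 633 adjacent pairs without overlap (2.69%) and a background of 3.25% over all neighbouring pairs. An r below 0 was found in 23.9% of overlapping pairs and 38.9% of adjacent pairs without overlap. Spearman's rho had a median of 0.393 in overlapping pairs and 0.143 in adjacent pairs without overlap. The genes of a pair had the same highest tissue in 333 overlapping pairs (34.8%, 31.8 to 37.8), against 19.6% (19.1 to 20.2) of adjacent pairs without overlap and a background of 20.2%. Across pairs within each tissue, the levels of both genes had a Spearman's rho between 0.236 (bud) and 0.325 (root) in overlapping pairs, and between 0.0498 (leaf) and 0.0773 (bud) in adjacent pairs without overlap.

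Levels were also closer within an overlapping pair. The difference of the mean log2(FPKM + 1) of both genes had a median of 1.11 (1.01 to 1.25) in overlapping pairs and 1.53 (1.51 to 1.56) in adjacent pairs without overlap. Means lay 2 or more apart in 276 overlapping pairs (28.8%), against 38.4% of adjacent pairs without overlap and a background of 38.1%. The log2 ratio of the genes of a pair ranged over a median of 2.27 across tissues in overlapping pairs and 3.10 in adjacent pairs without overlap. The set of tissues with detection was the same for both genes in 37.3% of overlapping pairs and 30.6% of adjacent pairs without overlap. Detection in no common tissue was rare, at 1.67% of overlapping pairs and 4.16% of adjacent pairs without overlap. The same gene was the higher of the pair in all 7 tissues in 47.5% of overlapping pairs and 46.0% of adjacent pairs without overlap.

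Likeness differed with the form of the overlap. Staggered pairs under 100 bp had the highest median r, at 0.612 (0.540 to 0.688, 275 pairs with both genes detected), and shared the highest tissue in 44.0% of cases. Staggered pairs from 100 bp to under 1000 bp had a median r of 0.459 (0.350 to 0.565), and those of 1000 bp or more 0.493 (0.360 to 0.647). Their intervals overlap, so these lengths were not told apart. Identical loci had a median r of 0.522 with a wide interval (0.217 to 0.729, 48 pairs). Nested pairs had the lowest, at 0.228 (0.116 to 0.347, 256 pairs), and shared the highest tissue in 24.6% of cases. An r of 0.9 or more was reached by 147 staggered pairs (22.5%), 7 pairs at identical loci (14.6%) and 11 nested pairs (4.30%).

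Adjacent pairs without overlap had a lower median r at wider gaps. Their median r was 0.343 (0.193 to 0.516) at gaps under 50 bp, 0.250 (0.123 to 0.318) at 50 to 99 bp and 0.219 (0.201 to 0.238) at gaps under 500 bp, a class that includes the first 2. It was 0.173 from 500 to under 2000 bp, 0.131 from 2000 to under 10000 bp and 0.105 (0.0851 to 0.119) at 10000 bp or more. Staggered pairs under 100 bp thus had a median r of 0.612, against 0.343 in pairs with a gap under 50 bp. The genes shared the highest tissue in 44.0% of these staggered pairs, against 31.8% of pairs with a gap under 50 bp. Nested pairs, at 0.228, were close to pairs with a gap under 500 bp, at 0.219.

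**Figure D2:**
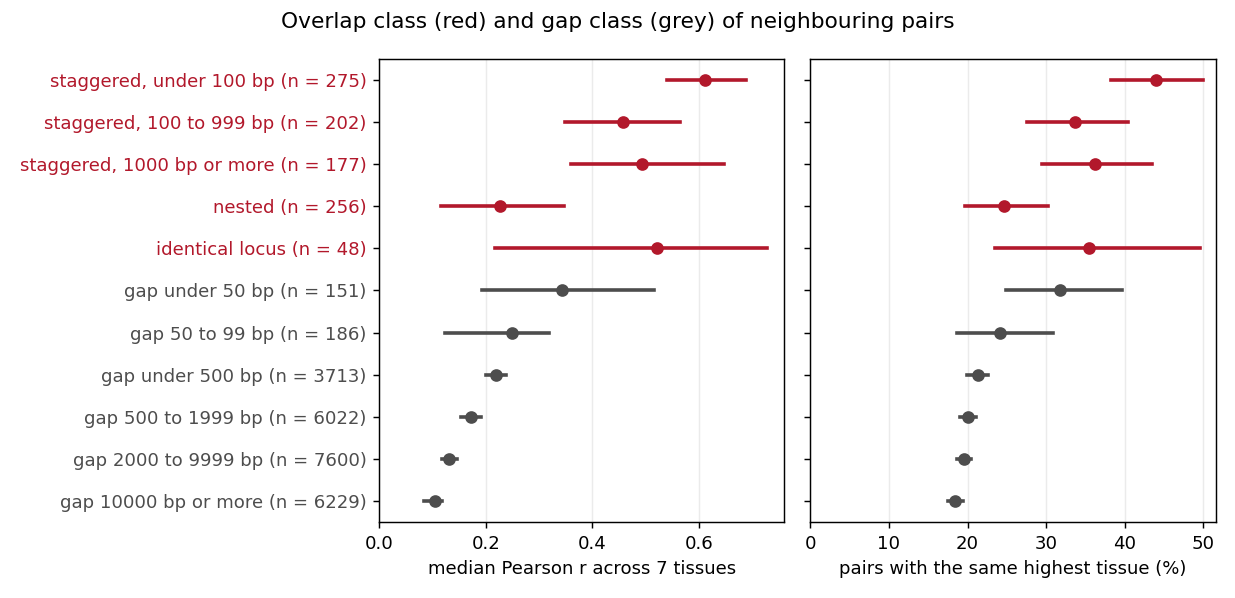
Median Pearson r across 7 tissues (left) and share of pairs with the same highest tissue (right, %), with 95% intervals, for overlapping pairs by form and length (red) and adjacent pairs without overlap by gap (grey). The gap classes under 50 bp and 50 to 99 bp are part of the class under 500 bp. Median r is 0.612 for staggered pairs under 100 bp, 0.228 for nested pairs and 0.105 for gaps of 10000 bp or more.

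At the edge of the rule, 2 pairs overlapped by 1 bp and 2 pairs touched with a gap of 0 bp. Bol025808 (Scaffold000085, 165418 to 167522) and Bol025809 (167522 to 169494) shared 1 bp and had an r of 0.00133. Bol016134 (Scaffold000157_P1, 2444 to 5430) and Bol016135 (5431 to 6112) touched without sharing a base and had an r of 0.193.

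How fragments had been counted where loci overlap shows in the bounds. Reading the distance between FPKM and its upper bound as 2 standard deviations of a count gives the number of fragments behind a value, and a gene counted by itself gives a whole number. Values were judged up to 500 implied fragments, the range in which 6 digits decide. Among these, 76.4% of 13277 member values were whole, against 93.1% of 176653 values of other genes. The share was 93.2% in members of staggered pairs under 100 bp, 72.5% in members of longer staggered overlaps, 72.2% in members of nested pairs and 26.0% in members of identical loci. Where a value is not whole, the number it implies is not a count of whole fragments of that gene alone.

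Where every judged value was whole, overlapping pairs were again more alike than adjacent pairs without overlap, while within each form r was lower than in pairs with some value not whole. Median r was 0.517 (0.419 to 0.575) in the 343 such overlapping pairs, against 0.153 in 13138 adjacent pairs without overlap held to the same limit. Of these 343 pairs, 185 were staggered by under 100 bp. Staggered pairs under 100 bp had a median r of 0.612 with all values whole (185 pairs) and 0.654 with some value not whole (90 pairs). Staggered pairs of 100 bp or more had 0.380 (0.160 to 0.570, 93 pairs) with all values whole and 0.495 (286 pairs) with some value not whole. Nested or identical pairs had 0.214 (0.0547 to 0.443, 65 pairs) with all values whole and 0.287 (239 pairs) with some value not whole. The intervals of both sets overlap in each form. The same highest tissue was found in 38.2% of these overlapping pairs and 19.6% of these adjacent pairs without overlap. Reads of 1 transcript that covers both loci, or of the opposite strand, would still give whole numbers, and their part in the likeness was not tested.

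Among overlapping pairs, median r also differed with span and breadth of expression. Overlapping pairs with both spans under 10000 bp had a median r of 0.538 (615 pairs), and those with a longer span 0.360 (343 pairs). Nested pairs, with the lowest r, had a median outer span of 19419.5 bp, and span was not separated from form. With both members detected in all 7 tissues, median r was 0.543 in 305 overlapping pairs and 0.164 in 6812 adjacent pairs without overlap. Over all pairs with both genes detected it was 0.449 and 0.148. Overlapping pairs with consecutive IDs had a median r of 0.455 (0.391 to 0.512, 912 pairs), and those with other numbers 0.411 (0.128 to 0.648, 46 pairs). The second interval is wide, so these sets were not told apart. A common shift of whole libraries also moves r, and after rescaling by trimmed means the median was 0.377 in overlapping pairs and 0.0650 in adjacent pairs without overlap. By form, the rescaled median was 0.561 in staggered pairs under 100 bp, 0.409 at identical loci and 0.0878 in nested pairs. It was 0.406 in staggered pairs from 100 bp to under 1000 bp and 0.464 in longer ones. At gaps under 500 bp it was 0.0984, and at gaps of 10000 bp or more 0.0338.

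In the 165 overlapping pairs with an r of 0.9 or more, both genes were highest in bud in 31 pairs, in callus in 29, in flower in 20, in leaf in 20, in root in 15, in stem in 11 and in silique in 7. Callus was the shared peak in 17.6% of these overlapping pairs and 24.8% of the 633 adjacent pairs without overlap at that r, bud in 18.8% and 13.6%, flower in 12.1% and 6.64%, and silique in 4.24% and 14.7%. Leaf was the shared peak in 12.1% of these overlapping pairs and 11.7% of these adjacent pairs without overlap, root in 9.09% and 12.8%, and stem in 6.67% and 2.37%. The highest tissue agreed in 133 of the 165 (80.6%), and the mean levels differed by a median of 0.51 on the log2 scale. Every judged value was whole in 62 of these pairs. Both genes were detected in all 7 tissues in 48 pairs and in 1 shared tissue only in 15. Since r of 0.9 chose these pairs, the values describe them.

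Among the 354 overlapping pairs with both members at 10 FPKM or more in some tissue, 84 had an r of 0.9 or more and 74 an r below 0. Adjacent pairs without overlap were not counted at this level. These counts therefore only describe the set from which most named pairs were taken. The files pair no gene ID with a name, so the loci are given by ID with scaffold and position in the table's own assembly, counted from 1.

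Bol018344 (Scaffold000139, 341425 to 342412) and Bol018345 (342395 to 343801) overlapped by 18 bp and were present in bud and flower, with an r of 0.9996. Bol018344 had 13.6 FPKM in bud and 15.9 FPKM in flower, with 0 listed for each of the 5 remaining tissues. Bol018345 had 23.4 FPKM in bud, 24.8 FPKM in flower and 0.0861 FPKM in root, and was listed at 0 in silique, leaf, stem and callus. The root value of Bol018345 rested on 1 implied fragment. All judged values of both genes were whole. Both genes were thus high in the same pair of reproductive tissues.

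Bol027571 (Scaffold000076, 622671 to 624256) and Bol027572 (624184 to 625522), with 73 bp in common, were both enriched in bud, with an r of 0.999. Bol027571 had 22.1 FPKM in bud, 0.605 FPKM in silique and 0.169 FPKM in callus and was listed at 0 in flower, leaf, stem and root. Bol027572 had 16.1 FPKM in bud, 0.626 FPKM in silique, 0.0698 FPKM in leaf, 0.141 FPKM in stem and 0.310 FPKM in callus, and was listed at 0 in flower and root. Their levels outside bud were all under 1 FPKM, so the likeness rested on a single tissue.

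Bol023021 (Scaffold000102, 2522 to 11538) and Bol023022 (9909 to 11660) shared 1630 bp and were high in bud and flower, with an r of 0.998. Bol023021 had 744 FPKM in bud, 338 FPKM in flower, 0 in silique, 0.268 FPKM in leaf, 0.302 FPKM in stem, 0.511 FPKM in root and 0 in callus. Bol023022 had 320.1 FPKM in bud, 96.5 FPKM in flower, 0 in silique, 0.152 FPKM in leaf, 0.184 FPKM in stem, 0.275 FPKM in root and 0 in callus. Of 3 judged values in each gene, 1 was whole.

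Bol016869 (Scaffold000151, 610463 to 623359) and Bol016870 (613376 to 625166) had equal FPKM in 6 of 7 tissues. Both had 11.9 FPKM in bud, 3.14 in flower, 12.7 in silique, 14.1 in leaf, 8.04 in stem and 4.74 in callus. In root Bol016869 had 2.93 FPKM and Bol016870 had 2.99 FPKM. None of the 7 judged values of either gene was whole, so here the likeness cannot be told apart from shared fragments. Equal values above 0 in 3 or more tissues were found in 2 of 1380 overlapping pairs (0.145%) and 2 of 37402 adjacent pairs without overlap (0.00535%).

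Pairs with both genes enriched in 1 tissue were more frequent among overlapping loci. Both members were enriched in the same tissue in 19 overlapping pairs (1.98%, 1.27 to 3.08), against 114 adjacent pairs without overlap (0.484%, 0.403 to 0.581) and a background of 0.542%. The 19 pairs were enriched in bud (8), callus (4), flower (3), leaf (2), stem (1) and root (1), and in silique there were 0, against 43 of the 114 adjacent pairs without overlap. The members were enriched in different tissues in 3 of 958 overlapping pairs and 80 of 23564 adjacent pairs without overlap. Only 1 gene was enriched in 83 of 958 overlapping pairs and 2903 of 23564 adjacent pairs without overlap. Of pairs with any enriched gene, both were enriched in 22 of 105 overlapping pairs (21.0%) and 194 of 3097 adjacent pairs without overlap (6.26%).

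Bol006454 (Scaffold000279, 599149 to 614720) and Bol006455 (610175 to 615393) were enriched in flower over 4546 shared bp, with an r of 0.994. Bol006454 had 8.17 FPKM in bud, 454 FPKM in flower, 8.56 FPKM in silique, 3.67 FPKM in leaf, 34.9 FPKM in stem, 0.373 FPKM in root and 20.8 FPKM in callus. Bol006455 had 6.46 FPKM in bud, 406 FPKM in flower, 7.77 FPKM in silique, 3.33 FPKM in leaf, 29.2 FPKM in stem, 0.632 FPKM in root and 11.7 FPKM in callus. The order of the tissues was the same in both genes. Of the judged values, 2 of 5 in Bol006454 and 1 of 6 in Bol006455 were whole.

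Bud supplied 5 of the 8 enriched pairs that were examined by ID. Bol026586 (Scaffold000082, 512907 to 521296) had 29.9 FPKM in bud and 0.367 FPKM in flower, and Bol026587 (520490 to 521706) had 168 FPKM in bud and 5.17 FPKM in flower, with at most 0.183 FPKM in any other tissue for either gene. Bol004420 (Scaffold000324, 119642 to 145112) had 19.1 FPKM in bud and 1.24 FPKM in flower, and Bol004423 (143556 to 145436) had 32.9 FPKM in bud and 0.889 FPKM in flower, with both listed at 0 elsewhere. These pairs stood near zero outside bud and flower.

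Bol010314 (Scaffold000223, 549421 to 577318), Bol010315 (563211 to 577318) and Bol010316 (569153 to 577318) formed a nest with a common end, and all were enriched in bud. Bol010314 had 66.6 FPKM in bud and 4.67 FPKM in flower, Bol010315 had 64.4 FPKM in bud and 1.40 FPKM in flower, and Bol010316 had 18.7 FPKM in bud and 1.26 FPKM in flower. In the other tissues none of them exceeded 0.660 FPKM. The r was 0.972 between Bol010314 and Bol010315, and 0.989 between Bol010315 and Bol010316.

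The callus-enriched trio lay on Scaffold000345, where Bol003633 (248125 to 298630) overlapped Bol003634 (276570 to 299141), which contained Bol003635 (286705 to 299141). Bol003633 had 24.1 FPKM in bud, 10.5 in flower, 9.39 in silique, 24.6 in leaf, 5.56 in stem, 0.648 in root and 163 in callus. Bol003634 had 1.503 FPKM in bud, 0.840 in flower, 0.895 in silique, 2.05 in leaf, 0.383 in stem, 0.0283 in root and 33.8 in callus. Bol003635 had 16.1 FPKM in bud, 9.15 in flower, 13.3 in silique, 22.3 in leaf, 3.63 in stem, 0.304 in root and 214 in callus. All 3 were highest in callus and lowest in root, while Bol003634 stood below its neighbours in every tissue. Few of the judged values were whole, namely 1 of 6 in Bol003633, 0 of 7 in Bol003634 and 1 of 6 in Bol003635.

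**Figure D3:**
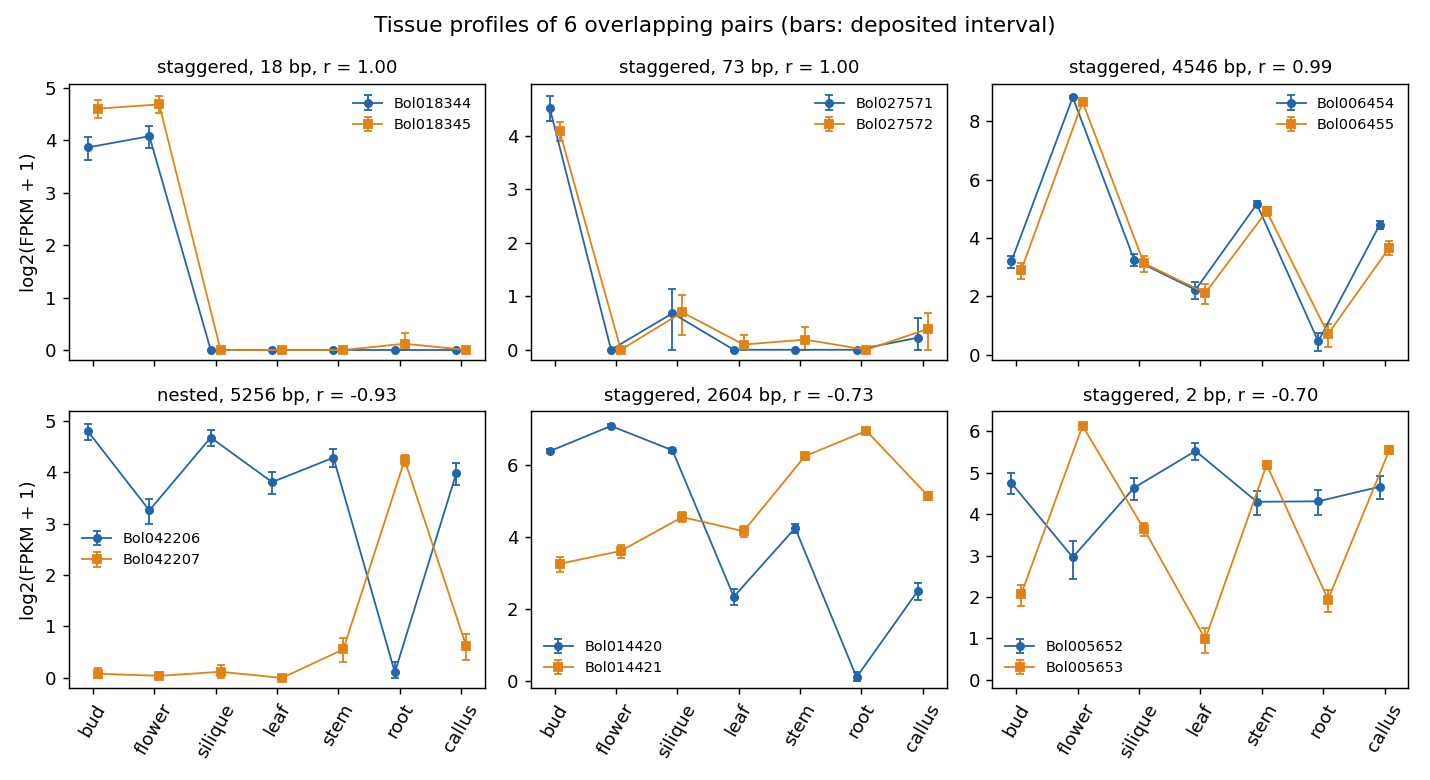
FPKM in the 7 tissues (log2(FPKM + 1) scale) with the bounds that accompany each value, for 6 overlapping pairs, each panel showing the first and second locus of a pair. Bol018344 and Bol018345, Bol027571 and Bol027572, and Bol006454 and Bol006455 run together (r of 0.9996, 0.999 and 0.994). The r is negative for Bol042206 and Bol042207 (-0.93), Bol014420 and Bol014421 (-0.73), and Bol005652 and Bol005653 (-0.70). In Bol042206 and Bol042207 the opposition lies in root.

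Strongly opposite profiles were rare in overlapping and in other neighbouring pairs. An r of -0.9 or less was found in 3 of 958 overlapping pairs (0.313%), against 63 of 23564 adjacent pairs without overlap (0.267%) and a background of 0.269%. It was found in 1 of the 354 overlapping pairs at 10 FPKM or more. Bol042206 (Scaffold000008_P2, 1355724 to 1365018) contained Bol042207 (1357850 to 1363105), with an r of -0.93. Bol042206 had 26.6 FPKM in bud, 8.55 in flower, 24.5 in silique, 12.97 in leaf, 18.4 in stem, 0.0778 in root and 14.7 in callus. Bol042207 had 0.0585 FPKM in bud, 0.0289 in flower, 0.0866 in silique, 0 in leaf, 0.469 in stem, 17.8 in root and 0.547 in callus. The inner gene was root-enriched, and root was the 1 tissue in which the outer gene was nearly absent, with 1 implied fragment. The bounds of both genes did not meet in any of the 7 tissues. Spearman's rho was only -0.14, so the opposition lay in root and not in the order of the remaining tissues.

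Bol014420 (Scaffold000174, 511531 to 517318) and Bol014421 (514715 to 517327) shared 2604 bp and had an r of -0.73. Bol014420 had 81.8 FPKM in bud, 134 in flower, 83.2 in silique, 4.05 in leaf, 17.9 in stem, 0.0757 in root and 4.67 in callus. Bol014421 had 8.51 FPKM in bud, 11.2 in flower, 22.3 in silique, 16.8 in leaf, 74.3 in stem, 121 in root and 34.3 in callus. The first was thus high in the reproductive tissues and the second in root and stem, although nearly the whole of the second locus lay inside the first. All judged values of both genes were whole, at 4 each.

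Bol005652 (Scaffold000295, 316268 to 319762) and Bol005653 (319761 to 322561) shared 2 bp and had an r of -0.70. Bol005652 had 25.9 FPKM in bud, 6.77 in flower, 23.9 in silique, 44.9 in leaf, 18.6 in stem, 18.8 in root and 24.3 in callus. Bol005653 had 3.19 FPKM in bud, 69.0 in flower, 11.5 in silique, 0.980 in leaf, 35.6 in stem, 2.84 in root and 45.8 in callus. The higher gene changed between tissues, with Bol005652 above in bud, silique, leaf and root and Bol005653 above in flower, stem and callus, each beyond the bounds.

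A smaller range of levels was seen in Bol015361 (Scaffold000165, 570054 to 572940) and Bol015362 (572749 to 575641), with an r of -0.82 and a Spearman's rho of -0.75 over 192 shared bp. Bol015361 had 24.1 FPKM in bud, 29.5 in flower, 35.6 in silique, 26.4 in leaf, 33.1 in stem, 62.8 in root and 39.0 in callus. Bol015362 had 29.5 FPKM in bud, 18.6 in flower, 26.6 in silique, 35.0 in leaf, 27.1 in stem, 13.5 in root and 21.0 in callus. Both genes were present in every tissue, and root held the highest value of the first and the lowest of the second.

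A change of the higher gene between tissues was less frequent in overlapping pairs. It was counted where the bounds put one gene above the other in some tissue and below it in another. This was found in 244 overlapping pairs (25.5%, 22.8 to 28.3) and 8699 adjacent pairs without overlap (36.9%, 36.3 to 37.5). The share was 14.5% (10.9 to 19.2) in staggered pairs under 100 bp, 26.6% in longer staggered pairs, 34.8% in nested pairs and 29.2% at identical loci. A change needs bounds that do not meet. They did not meet in 70.8% of tissue values in overlapping pairs and 81.2% in adjacent pairs without overlap. By form this was 57.9% in staggered pairs under 100 bp, 73.3% in longer staggered pairs, 81.2% in nested pairs and 70.5% at identical loci. The median implied number of fragments was 36.0 in members of staggered pairs under 100 bp and 66.0 in genes outside overlapping pairs. Fewer fragments widen the bounds, and their part in the lower share was not tested. How the bounds were computed is not given, and what they cover where fragments were divided among loci was not tested.

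**Figure D4:**
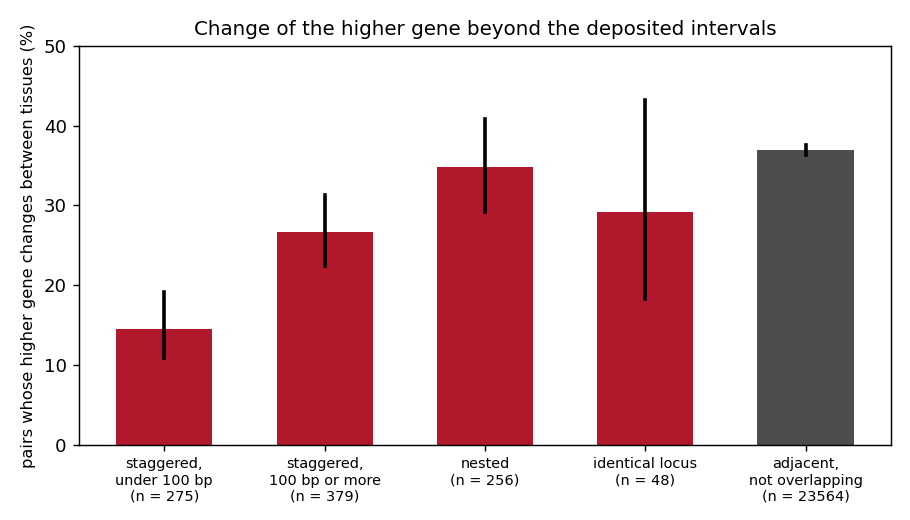
Share of pairs (%) in which the higher gene differed between tissues beyond the deposited bounds, with 95% Wilson intervals, for overlapping pairs by form and for adjacent pairs without overlap. Staggered pairs under 100 bp, whose bounds fail to meet least often (57.9% of tissue values), are lowest at 14.5%, nested pairs stand at 34.8% and adjacent pairs without overlap at 36.9%.

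Nested pairs set a long outer gene against a short inner one. The median span was 19419.5 bp for outer and 1445.5 bp for inner loci, while the median coding length was 1059 bp for outer and 922 bp for inner genes. The outer gene was detected in 366 of 436 pairs (83.9%) and the inner gene in 297 (68.1%). Both were detected in 256 pairs, only the outer in 110, only the inner in 41 and neither in 29. The median of the highest FPKM was 10.4 for outer and 5.16 for inner genes. Outer genes had the higher mean level in 286 pairs, inner genes in 146, and 4 were equal. Outer genes were without introns in 0 of 279 cases, inner genes in 9 of 258. Judged values were whole in 64.1% of cases for outer genes and 80.6% for inner genes.

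**Figure D5:**
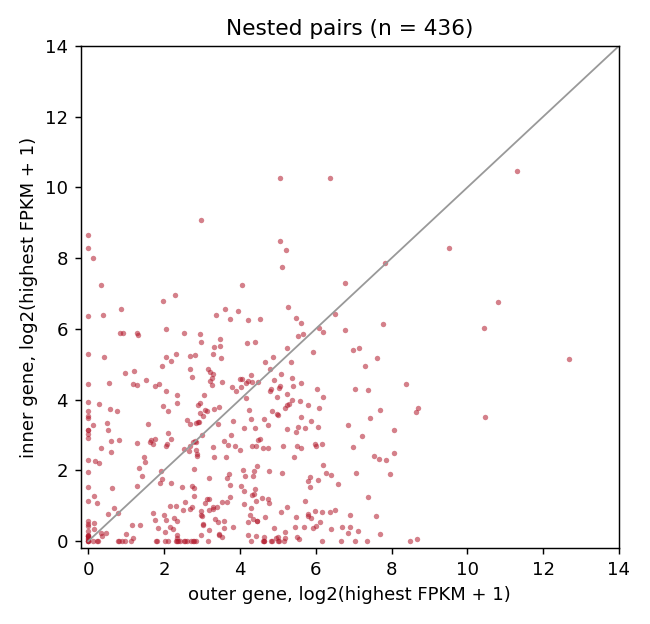
Highest FPKM over the 7 tissues of the outer gene (x) and of the inner gene (y) on the log2(FPKM + 1) scale, 1 point for each of 436 nested pairs, with the line of equal levels. Points spread on both sides of the line, with medians of 10.4 FPKM for outer and 5.16 FPKM for inner genes.

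Among nested pairs at 10 FPKM or more, the lower gene by mean log2(FPKM + 1) stood highest in the pair of Bol025300 (Scaffold000088, 664978 to 708766) and, inside it, Bol025301 (681260 to 708766), with an r of 0.985. Bol025300 had 2557 FPKM in bud, 1709 in flower, 1752 in silique, 215 in leaf, 1701 in stem, 5.83 in root and 155 in callus. Bol025301 had 994 FPKM in bud, 1166 in flower, 1407 in silique, 152 in leaf, 643 in stem, 1.77 in root and 147 in callus. Both were lowest in root and low in leaf and callus, and neither had a whole value among those judged.

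In the next 2 nested pairs by that measure the profiles ran together less closely. Bol044615 (Scaffold000002, 4297252 to 4305473) and the inner Bol045707 (4300934 to 4303912) were both highest in leaf, at 225 FPKM in Bol044615 and 233 FPKM in Bol045707, with an r of 0.635. Bol002324 (Scaffold000394, 152895 to 162387) was highest in bud at 1796 FPKM, whereas the inner Bol002325 (155611 to 157742) was highest in stem at 107 FPKM, with an r of 0.742. Root was the lowest tissue of both genes in this last pair, at 66.7 FPKM in Bol002324 and 6.24 FPKM in Bol002325.

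At the 108 identical loci both genes were detected in 48 pairs, 1 gene in 36 and none in 24. In 26 pairs 1 gene was listed at 0 in every tissue. No identical pair had the same FPKM above 0 in all tissues. Bol027879 and Bol027880, both at Scaffold000074, 63013 to 65645, had mean levels 6.40 apart on the log2 scale. Bol027879 had 377 FPKM in bud, 272 in flower, 356 in silique, 391 in leaf, 282 in stem, 367 in root and 349 in callus. Bol027880 had 19.3 FPKM in bud, 4.03 in flower, 0.446 in silique, 0.0383 in leaf, 0.271 in stem, 0.0494 in root and 83.8 in callus. One locus was thus listed with an even profile under one ID and a callus-enriched one under the other. The bounds of Bol027880 cannot be read as counting error. In leaf they would imply 1557594 fragments for 0.0383 FPKM, against 11284 for the 391 FPKM of Bol027879. How fragments were divided between them is not given, and the values of Bol027880 may not be levels of a gene.

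Large differences of level were also found in staggered pairs. Bol018845 (Scaffold000136, 1189114 to 1193482) had between 0.640 FPKM in stem and 12.7 FPKM in callus. Its neighbour Bol018846 (1191657 to 1193553), which lay almost wholly inside it, had 534 FPKM in bud, 1589 in flower, 2500.2 in silique, 1030.0 in leaf, 1369 in stem, 31.7 in root and 59.5 in callus. Mean levels lay 6.68 apart on the log2 scale, the largest difference among pairs at 10 FPKM or more. All 7 judged values of Bol018845 were whole.

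Bol001469 (Scaffold000442, 149713 to 151717) had between 1.62 FPKM in flower and 23.0 FPKM in leaf. Bol001470 (151380 to 153580), which shared 338 bp with it, had between 251 FPKM in flower and 1052 FPKM in bud. Their mean levels lay 6.39 apart, while r was 0.699 and Spearman's rho 0.5. Both genes were lowest in flower but differed in the highest tissue, so the profiles were alike only in part.

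The longest overlaps joined loci with very long spans. Bol013916 (Scaffold000181, 92891 to 279857) and Bol013917 (140470 to 281344) shared 139388 bp, the longest of all. Bol013916 reached at most 0.289 FPKM, in bud, and Bol013917 had between 10.1 FPKM in callus and 36.6 FPKM in silique. Both had whole judged values throughout, 3 of 3 in Bol013916 and 7 of 7 in Bol013917.

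Among pairs at 10 FPKM or more, Bol012365 (Scaffold000199, 400431 to 518946) and Bol012366 (402409 to 520853) shared 116538 bp with an r of -0.62. Bol012365 had 10.1 FPKM in bud, 5.44 in flower, 10.2 in silique, 13.7 in leaf, 13.4 in stem, 1.39 in root and 8.04 in callus. Bol012366 had 10.1 FPKM in bud, 5.37 in flower, 2.80 in silique, 5.55 in leaf, 19.8 in stem, 68.0 in root and 27.3 in callus. They were level in bud and flower and far apart in root. Of the judged values, 1 of 7 in Bol012365 and 1 of 6 in Bol012366 were whole, and none of those in bud and flower.

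Bol027996 (Scaffold000074, 921987 to 980587) and Bol027997 (926232 to 982719) shared 54356 bp and differed by 0.03 in mean log2(FPKM + 1), with an r of 0.626. Bol031119 (Scaffold000056, 1058620 to 1103990) contained Bol031120 (1067339 to 1103990) over 36652 bp, with an r of -0.10. Bol031119 had between 2.65 FPKM in leaf and 10.2 FPKM in stem, while Bol031120 had 35.1 FPKM in bud, 8.30 FPKM in flower and at most 0.271 FPKM elsewhere.

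Along the longest chain, every neighbouring pair held a gene below 1 FPKM in all tissues, so none passed the filter used for r. The chain of 5 loci on Scaffold000169 ran over Bol014921 (176647 to 211524), Bol014922 (182566 to 218424), Bol014923 (195359 to 250591), Bol014924 (196575 to 232433) and Bol014925 (210503 to 211720). Their highest levels were 2.23 FPKM in bud for Bol014921, 0.383 FPKM in callus for Bol014922, 8.76 FPKM in stem for Bol014923, 0.877 FPKM in callus for Bol014924 and 58.0 FPKM in bud for Bol014925. The r of each neighbouring pair was -0.40, -0.10, -0.41 and -0.43 along the chain. Each of these r rests on Bol014922, with at most 7 implied fragments in a tissue, or Bol014924, with at most 10. Likeness along this chain could therefore not be judged. The shortest locus was the highest in every tissue.

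In the first of the 7 chains of 4 loci by scaffold and start, on Scaffold000006, the outermost IDs were high and the middle ones low. Bol042755 (766066 to 811881) had between 40.4 FPKM in callus and 65.9 FPKM in stem, and Bol042758 (792994 to 811900) between 87.0 FPKM in root and 131 FPKM in flower. Bol042756 (769841 to 811900) reached at most 3.20 FPKM, in bud, and Bol042757 (792530 to 811881) at most 5.66 FPKM, in callus. The r along the chain was 0.14, -0.29 and 0.23.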

How the data were processed

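RNA-seq libraries of 7 tissues, 1 per tissue, were analysed from 1 table. Per the file headers, the deposited values are FPKM, each with its lower and upper bound. Per the submitters' processing notes, TopHat 1.0.13 was used. Not given in the sources used here are the FPKM program, the build and the gene models. Of the gene IDs, 0 matched the RefSeq table of the species (53125 genes, assembly BOL), and no genome was used, so neither names nor sequences are given.

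Starts were raised by 1 to count from 1. Profiles were compared on log2(FPKM + 1) for pairs with both genes at 1 FPKM or more in some tissue. Implied fragments were 4 times the square of FPKM over its distance to the upper bound, and were called whole within 0.02, or within 1e-05 times the number to the power 1.5 where that was wider. Python 3.11.15, numpy 2.4.6, pandas 2.3.3, scipy 1.17.1 and matplotlib 3.10.9 were used, and the steps were tested on simulated data.

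The pairs named by ID had both genes at 10 FPKM or more and the longest overlaps, highest or lowest r, largest level differences, highest nested levels or enrichment of both genes. The longest overlap of all, the shortest overlap and gap, the chain of 5 loci and 1 of the 7 chains of 4 (ties taken by scaffold and start) were added without that limit. Members and lists were chosen with earlier results of these data known. Other filters, pseudocounts, scalings, definitions of overlap and left-out tissues were tried.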

Additional observations from a re-analysis of the deposited data

How the results depend on the processing

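The 5 comparisons were repeated under 25 other settings, each where it applied. Median r was higher in overlapping pairs than in adjacent pairs without overlap under 23 of 23 settings, the share with the same highest tissue under 20 of 20, and the share detected was higher in members under 14 of 14. The level difference was smaller in overlapping pairs under 22 of 22. The share enriched was lower in members under 16 of 18, and the exceptions were overlaps of 100 bp or more (0.00871 percentage points higher) and silique left out (0.0341 higher). Of single values, 99 stayed within the interval of the main setting and 80 moved outside it. A change of sign was looked for only in median r and was found in 0 cases. Of these settings, all values whole, spans under 10000 bp and detection in all 7 tissues were chosen after seeing the data.

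Without the filter on low values, median r was 0.381 in overlapping and 0.124 in adjacent pairs without overlap, the level difference in overlapping pairs 1.27, and the share enriched 5.19% of members and 5.63% of other genes. With a highest FPKM of 5 or more, enrichment held for 8.05% of members and 8.93% of other genes, and adjacent pairs without overlap had 19.1% with the same highest tissue and a level difference of 1.37. A pseudocount of 0.1 gave level differences of 1.59 in overlapping and 2.20 in adjacent pairs without overlap, and enriched shares of 9.62% in members and 11.6% in other genes. A pseudocount of 0.5 gave 1.30 and 1.78 for these pairs, and 7.55% and 9.06% for these genes. With 10 or more fragments, 79.3% of members and 75.6% of other genes were detected, and at 0.5 FPKM 86.9% and 83.5%. A 2-fold step called 19.7% of members and 22.5% of other genes enriched.

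By trimmed means, the columns stood off their common reference by -0.41 in root, -0.23 in stem, -0.21 in flower, 0.11 in silique, 0.14 in bud, 0.20 in leaf and 0.40 in callus on the log2 scale. Rescaling removed these offsets, so that root was raised most and callus lowered most. It gave a median r of 0.377 in overlapping and 0.0650 in adjacent pairs without overlap, 19.0% of the adjacent pairs without overlap with the same highest tissue, and 7.73% of other genes enriched. Equal upper quartiles gave a median r of 0.0717 in adjacent pairs without overlap and 7.72% of other genes enriched.

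Overlaps of 100 bp or more gave a median r of 0.374, 31.0% with the same highest tissue and 79.9% of members detected. Counting any overlapping loci gave 0.362, 30.9% and a level difference of 1.25. Without nested and identical loci the values were 0.556, 38.7% and 88.2% of members detected. With all values whole, overlapping pairs had a median r of 0.517, 38.2% with the same highest tissue and a level difference of 0.858, against a level difference of 1.34 in adjacent pairs without overlap. With spans under 10000 bp, overlapping pairs had a median r of 0.538 and a level difference of 1.01. With detection in all 7 tissues, median r was 0.543 in overlapping and 0.164 in adjacent pairs without overlap, and level differences 0.877 and 1.19. Gaps under 1000 bp gave adjacent pairs without overlap a median r of 0.207 and 21.0% with the same highest tissue.

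With 1 tissue left out, some values of overlapping loci moved. The same highest tissue was found in 37.9% of overlapping pairs without leaf, members were detected in 79.7% of cases without bud and 80.8% without callus, and 7.72% of members were enriched without flower. In adjacent pairs without overlap, median r was 0.165 without bud, 0.173 without flower, 0.169 without silique, 0.180 without leaf, 0.161 without stem, 0.124 without root and 0.139 without callus. The same highest tissue was found there in 22.5% without bud, 22.2% without flower or silique, 22.8% without leaf, 21.6% without stem or callus and 22.6% without root. Other genes were detected in 76.0% of cases without bud, 77.6% without flower, 75.8% without silique, 77.0% without leaf, 77.3% without root and 76.1% without callus. Of other detected genes, 8.27% were enriched without bud, 8.95% without flower, 6.30% without silique, 8.05% without stem, 7.95% without root and 8.62% without callus. Fewer tissues make a shared highest tissue more likely by construction. The cause of the other shifts was not tested.

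No paired analysis was possible because every tissue is a single library without a replicate number. Strand is not recorded, values that are not whole are not counts of 1 gene's fragments, and a median value above 0 rested on 63.0 implied fragments in members and 66.0 in other genes, so low levels carry wide counting error.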
